A study of Mus musculus with 34 samples.

Results

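Adhesion and orphan G protein-coupled receptors were taken as every mouse gene whose symbol begins with Gpr and a number or follows the Adgr pattern, provided that the deposited tables gave it at least 1 region of histone H3 lysine 27 acetylation (H3K27ac) within 100000 bp of its nearest transcription start site (TSS). This gave 83 receptor genes of 18476 genes with such a region, 24 of them adhesion (Adgr) receptors and 59 Gpr receptors. Membership within this family was set by name and distance alone, but the family itself was chosen with earlier results of these data known. The table of liver and blood cells held 76 of the receptors in 390 of its 84647 regions, and the table of cultured macrophages held 81 of them in 431 of its 95038 regions, with 74 receptors in both tables.

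G protein-coupled receptors pass a signal across the plasma membrane to heterotrimeric G proteins, which act on adenylyl cyclases, phospholipases and regulators of the cytoskeleton. Adhesion receptors carry a long extracellular part that is cleaved from the membrane-spanning part and binds other cells or matrix, and macrophages are known for several of them, above all Adgre1, whose protein is the mouse macrophage antigen F4/80. Many Gpr genes were named before a ligand was known, and some now have one: Gpr65, Gpr132 and Gpr4 belong to a family of receptors that respond to extracellular protons, Gpr183 binds an oxysterol, Gpr55 and Gpr34 bind lysophospholipids and Gpr84 binds medium-chain fatty acids. H3K27ac marks active promoters and enhancers.

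The study profiled H3K27ac by chromatin immunoprecipitation sequencing (ChIP-seq) in Kupffer cells, the resident macrophages of the liver, in liver macrophages that repopulate the niche after Kupffer cells are killed (RLM), and in the Ly6C-high blood monocytes from which such cells arise. RLM came from Clec4f-cre/Rosa26iDTR mice 24 h after diphtheria toxin, where the Clec4f promoter, active in Kupffer cells, directs toxin sensitivity to them. Blood monocytes came from untreated C57BL/6J mice. Kupffer cells for H3K27ac were labelled as untreated C57BL/6J, although the series design text names Clec4f-Cre/DTR mice for them, so strain, toxin and cell type cannot be told apart in comparisons with RLM. Bone marrow-derived macrophages (BMDM) of C57BL/6J mice, cultured for 4 days, were profiled for H3K27ac after 24 h with the Notch ligand DLL4 and without treatment. Factor ChIP-seq covered LXR, an oxysterol-activated nuclear receptor, in untreated Kupffer cells and in C57BL/6J BMDM cultured for 7 days with the LXR agonist GW3965 for 18 h, and SMAD4 and RBPJ, the DNA-binding arms of TGF-beta or BMP and of Notch signalling, in Kupffer cell nuclei and in untreated BMDM cultured for 4 days. Kupffer cells for the factors came from Clec4f-cre mice per the labels, although headers of the nuclei lists name C57BL/6J. Each group had 2 libraries, and nothing in the labels says that they came from separate animals or cultures. Each p-value therefore measures spread between libraries and cannot be read as spread between animals or cultures. The liver and blood libraries were fitted together, so a p-value for 2 of these groups also depends on the libraries of the group not compared.

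Values are tags of all regions of a gene, summed, scaled to library size and given as CPM, so a gene with more regions has a higher sum and sums are not compared between genes. Neighbouring regions, each 2000 bp long, can overlap and share tags. A gene or region was called when the Benjamini-Hochberg adjusted p of edgeR's quasi-likelihood test over all features of its table was under 0.05 and the fold was at least 2. Regions were tied to the gene of the nearest TSS, which need not be the gene they regulate, and 17.4% of the receptor regions in the liver and blood table lay inside another gene. Regions inside the receptor gene itself made up 45.6%, intergenic regions 36.9%, and 40 of the 76 genes had a region within 1000 bp of a TSS. Fewer acetylated cells and less acetylation per cell cannot be told apart in these bulk libraries.

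Total tags in regions ran from 7368619 to 19498952 per library in the liver and blood table and from 20178916 to 27239851 in the cultured macrophage table. Receptor genes took 0.25% to 0.331% of these tags in the liver and blood table and 0.352% to 0.416% in the cultured macrophage table. Of the Kupffer cell markers, 8 of 8 were higher and 0 lower in Kupffer cells against monocytes, and of the monocyte markers 1 of 8 was higher and 5 lower. Summed liver endothelium markers were 206 and 210 CPM in Kupffer cells, 125 and 116 CPM in RLM and 103 and 92.8 CPM in monocytes, with 2 of 9 tested markers called higher (Cldn5 and Stab2) and 4 lower (Egfl7, Kdr, Ptprb and Tek) in Kupffer cells against RLM. Summed lymphocyte markers were 159 and 208 CPM in Kupffer cells, 153 and 152 CPM in RLM and 246 and 338 CPM in monocytes. Summed dendritic cell markers were 311 and 351 CPM in Kupffer cells, 130 and 129 CPM in RLM and 165 and 184 CPM in monocytes, with 4 of 6 (Ccr7, Clec9a, Xcr1 and Zbtb46) called higher and 1 (Flt3) lower in Kupffer cells against each of the others. The part of such cells in the receptor values below was not tested.

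Promoters of 5 receptors that the results turn on are shown, 3 with more acetylation in Kupffer cells than in monocytes (Adgre4, Gpr65 and Gpr84) and 2 with less (Gpr132 and Gpr141). Each sequence runs from 250 bases before to 50 bases after the annotated start (RefSeq, GRCm38.p6), 5' to 3' on the strand of the gene, and 60 of the 83 receptors had at least 1 promoter in that table. Capitals mark matches, on either strand, to 1 of 5 motifs: PU.1 (AGGAAGT), RBPJ (TGGGAA), SMAD (CAGACA), a single LXR repeat unit (AGGTCA) and AP-1 (TGACTCA).
Adgre4, chr17:55749734-55750033, plus strand: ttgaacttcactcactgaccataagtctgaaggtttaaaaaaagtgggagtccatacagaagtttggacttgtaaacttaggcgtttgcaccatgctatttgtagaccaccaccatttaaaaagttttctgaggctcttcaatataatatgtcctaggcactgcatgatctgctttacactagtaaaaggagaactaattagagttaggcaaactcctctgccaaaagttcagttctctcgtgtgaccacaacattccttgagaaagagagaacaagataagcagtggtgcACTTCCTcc
Gpr65, chr12:98268385-98268684, plus strand: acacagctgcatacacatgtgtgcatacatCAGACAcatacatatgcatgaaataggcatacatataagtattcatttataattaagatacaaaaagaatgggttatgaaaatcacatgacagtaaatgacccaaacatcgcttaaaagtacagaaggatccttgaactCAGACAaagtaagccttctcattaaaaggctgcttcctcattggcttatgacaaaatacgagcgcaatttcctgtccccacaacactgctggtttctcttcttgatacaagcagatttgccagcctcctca
Gpr84, chr15:103310389-103310688, minus strand: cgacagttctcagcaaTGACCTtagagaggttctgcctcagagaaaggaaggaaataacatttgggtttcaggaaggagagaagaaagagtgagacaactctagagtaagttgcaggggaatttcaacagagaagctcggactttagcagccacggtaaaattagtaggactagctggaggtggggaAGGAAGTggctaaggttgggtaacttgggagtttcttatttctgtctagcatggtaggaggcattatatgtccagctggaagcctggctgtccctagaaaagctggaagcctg
Gpr132, chr12:112860867-112861166, minus strand: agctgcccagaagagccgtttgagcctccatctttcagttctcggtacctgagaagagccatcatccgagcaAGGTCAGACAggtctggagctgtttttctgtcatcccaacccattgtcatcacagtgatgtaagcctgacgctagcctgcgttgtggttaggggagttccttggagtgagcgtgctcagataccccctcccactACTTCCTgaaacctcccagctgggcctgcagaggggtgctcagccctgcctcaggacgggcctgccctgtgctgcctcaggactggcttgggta
Gpr141, chr13:19824208-19824507, minus strand: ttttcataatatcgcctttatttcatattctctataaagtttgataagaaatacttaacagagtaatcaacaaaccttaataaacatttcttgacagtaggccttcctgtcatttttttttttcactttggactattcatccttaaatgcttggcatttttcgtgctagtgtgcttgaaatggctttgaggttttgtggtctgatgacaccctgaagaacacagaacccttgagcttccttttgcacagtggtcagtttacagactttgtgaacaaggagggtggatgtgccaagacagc

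In these windows Adgre4 held a PU.1 match near its 3' end, at bases 292 to 298, and Gpr65 held SMAD matches at bases 31 to 36 and 170 to 175. Gpr84 held an LXR unit at bases 17 to 22 and a PU.1 match at bases 188 to 194. Gpr132 held an LXR unit at bases 73 to 78 that overlaps a SMAD match at bases 77 to 82, and a PU.1 match at bases 207 to 213, whereas Gpr141 held no match. PU.1 letters occurred in 13% of the 77 receptor promoters and in 9.35% of all 32851 promoters of the same length. The other shares in receptor promoters and in all promoters were 20.8% and 25.6% for RBPJ, 19.5% and 21.0% for SMAD, 13% and 16.3% for the LXR unit, and 6.49% and 5.2% for AP-1.

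In liver and blood cells 73 of the 76 receptors could be tested, and called receptors were found in both directions in each of the 3 comparisons. In RLM against monocytes, 3 receptors (4.11%) were higher and 5 (6.85%) lower, against 6.20% and 5.80% of all 16749 genes tested. Kupffer cells against RLM gave 12 higher (16.4%) and 15 lower (20.5%), against 14.6% and 12.8% of all genes. Kupffer cells against monocytes gave 16 higher (21.9%) and 12 lower (16.4%), against 18.4% and 14.4% of all genes. These 3 comparisons share libraries, so their calls are not independent of each other. Untested for low counts were Adgrb1, Adgrf3 and Gpr25, with 20, 25 and 52 tags over the 6 libraries.

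Median log2 fold changes of the tested receptors, beside those of all genes, were 0.32 against 0.07 in RLM over monocytes, -0.15 against -0.07 in Kupffer cells over RLM and 0.01 against -0.08 in Kupffer cells over monocytes. No call in any of the 3 comparisons was made for 36 of the 73 receptors. The count of lower receptors in Kupffer cells against RLM was 8 without the Kupffer cell library of replicate 2, with 7 of the 15 kept, and 8 when only genes averaging at least 5 CPM were counted. Of all 4029 genes averaging under 5 CPM, 999 were lower in Kupffer cells against RLM, with a median log2 fold change of -0.86. Of the 24 receptors at that level, 7 were lower. At 5 to 20 CPM, 5 of 21 receptors and 624 of 3823 genes were lower. From 20 to 100 CPM these were 2 of 18 and 409 of 5842. From 100 CPM they were 1 of 10 and 110 of 3055. Scaling by total tags moved the median of all genes by -0.326 in that comparison and by -0.289 in Kupffer cells against monocytes, and the share of higher calls among all called genes was then 30.5% in place of 53.3% and 38.8% in place of 56.1%. Under it Gpr82 lost its higher call against RLM, and Adgrf5, Gpr142 and Gpr162 lost theirs against monocytes. In RLM against monocytes, receptors called higher numbered 5 without RLM replicate 1 and 6 without monocyte replicate 1.

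**Figure D1:**
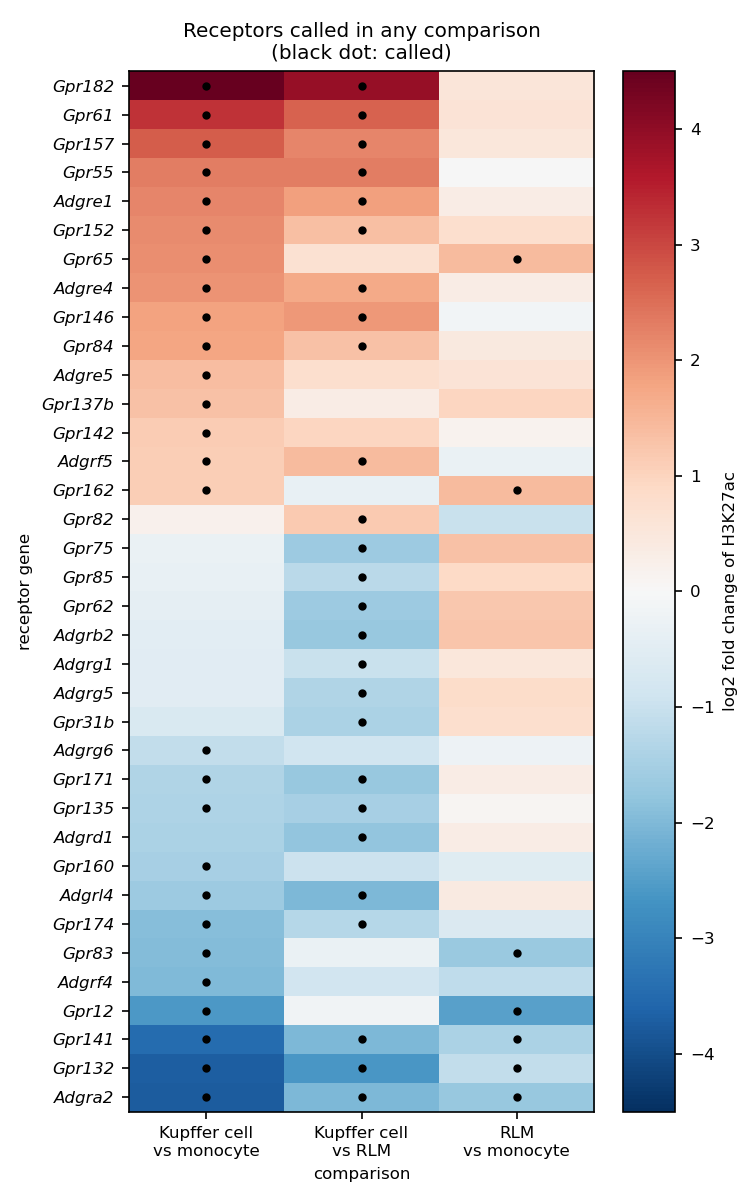
H3K27ac log2 fold changes (colour) of 36 of the 37 receptors called in at least 1 comparison (rows), for Kupffer cells against monocytes, Kupffer cells against RLM and RLM against monocytes (columns); a black dot marks a call. Gpr182 has the highest value, 4.47 in Kupffer cells against monocytes, and Adgra2 and Gpr132 the lowest, -3.75 and -3.72 in the same comparison.

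Adhesion receptors of the Adgre family, which myeloid cells use for contact with other cells, had more H3K27ac in Kupffer cells. Adgre1 had 369 and 437 CPM in Kupffer cells, 115 and 108 CPM in RLM and 97.3 and 81.1 CPM in monocytes. Both Kupffer cell libraries lay far above the other 4, and RLM were close to monocytes. The log2 fold change was 1.86 ± 0.16 (SE) against RLM, with an adjusted p of 1.41e-11, and 2.18 ± 0.16 against monocytes, with an adjusted p of 1.42e-13, while RLM against monocytes was not called at 0.32 ± 0.15. Its 18 regions included 16 that were higher in Kupffer cells against both RLM and monocytes. At -16094 bp from the TSS (chr17:57341592-57343592, mm10), upstream and intergenic, Kupffer cells had 23.8 and 30.2 CPM, RLM 4.73 and 2.74 CPM and monocytes 4.05 and 2.06 CPM. The promoter region (chr17:57357615-57359615) differed less, with 28.6 and 32.6 CPM in Kupffer cells, 11.6 and 12.0 CPM in RLM and 8.93 and 5.94 CPM in monocytes.

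Adgre4, a further F4/80 relative on chromosome 17, had 45.3 and 52.2 CPM in Kupffer cells, 15.1 and 15.0 CPM in RLM and 11.4 and 12.4 CPM in monocytes. Kupffer cells did not overlap the other groups, with log2 fold changes of 1.69 ± 0.21 against RLM (adjusted p 5.27e-08) and 2.03 ± 0.21 against monocytes (adjusted p 6.25e-10). The region over the promoter printed above (chr17:55748971-55750971) had 11.6 and 14.0 CPM in Kupffer cells, 6.7 and 3.76 CPM in RLM and 5.21 and 4.05 CPM in monocytes. An intron region 2606 bp downstream had 21.9 and 28.3 CPM in Kupffer cells, 4.99 and 7.72 CPM in RLM and 2.81 and 5.2 CPM in monocytes, so the intron moved more than the promoter.

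Adgre5, which encodes CD97, a receptor for CD55 and Thy1, had 727 and 972 CPM in Kupffer cells, 497 and 501 CPM in RLM and 323 and 326 CPM in monocytes. The 3 groups stood in this order without overlap, but only Kupffer cells against monocytes passed both criteria (log2 fold change 1.39 ± 0.15, adjusted p 2.07e-09). Against RLM the log2 fold change was 0.77 with an adjusted p of 7.96e-05, short of the fold required, and RLM against monocytes gave 0.62 with an adjusted p of 0.00162. In RLM against monocytes 4 intron regions, 2006 to 4477 bp after the TSS, were called higher. The largest by level, chr8:83738305-83740305, had 73.0 and 107 CPM in Kupffer cells, 57.7 and 60.5 CPM in RLM and 30.1 and 18.8 CPM in monocytes.

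The partners of these receptors were also measured. Cd55, the CD97 ligand, had 8.77 and 5.91 CPM in Kupffer cells and 0.597 and 1.1 CPM in monocytes, and was called higher. Tgm2, a transglutaminase that binds Adgrg1, had 627 and 735 CPM in Kupffer cells and 55.7 and 60.3 CPM in monocytes, also called higher, whereas Thy1 was called lower. Against RLM, Cd55 and Tgm2 were likewise higher in Kupffer cells and Thy1 lower. Tgm2 was also higher in RLM against monocytes. These 2 higher and 1 lower of 3 tested partners stand beside 18.4% and 14.4% of all genes against monocytes, and 14.6% and 12.8% against RLM. The remaining listed partner, Col3a1, was not tested.

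Among the adhesion receptors known from endothelium, directions were mixed. Adgrf5, an endothelial and lung receptor, had 44.7 and 49.4 CPM in Kupffer cells, 21.1 and 14.6 CPM in RLM and 25.5 and 18.5 CPM in monocytes, and was higher in Kupffer cells by 1.41 ± 0.22 (log2) against RLM, adjusted p 2.82e-06, and by 1.1 ± 0.21 against monocytes. The call against monocytes was lost without Kupffer cell replicate 2 (0.99) and without monocyte replicate 2 (0.89). With overlapping regions thinned, both calls were lost, at 0.98 against RLM and 0.72 against monocytes, and no Adgrf5 region of the liver and blood table lay within 10000 bp of the TSS. Adgrl4, an angiogenesis receptor, had 2.55 and 2.92 CPM in Kupffer cells, 12.2 and 10.2 CPM in RLM and 8.61 and 8.45 CPM in monocytes. It was lower in Kupffer cells against both, with log2 fold changes of -2.01 ± 0.34 against RLM and -1.62 ± 0.33 against monocytes. Adgra2, a receptor of brain blood vessel growth, had 4.24 and 1.36 CPM in Kupffer cells, 7.36 and 12.6 CPM in RLM and 32.1 and 34.6 CPM in monocytes, and fell in all 3 comparisons. Its log2 fold changes were -1.72 ± 0.31 in RLM over monocytes (adjusted p 0.00013), -2.03 ± 0.38 in Kupffer cells over RLM (0.000118) and -3.75 ± 0.36 in Kupffer cells over monocytes (4.42e-09). In all 3 comparisons the called regions were introns between 19246 and 21094 bp after its TSS. Endothelial markers moved in both directions in the same libraries, as given above, and their part in these values was not tested.

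Further adhesion receptors called at least once had calls that depended on single libraries. Adgrg1, known from the development of the brain cortex, had 9.62 and 7.79 CPM in Kupffer cells, 17.3 and 17.2 CPM in RLM and 10.6 and 13.8 CPM in monocytes, and its call against RLM (log2 -1.0 ± 0.26, adjusted p 0.00212) sat at the fold limit. Left without any library other than Kupffer cell replicate 1, it was not called (-0.84 without Kupffer cell replicate 2 and -0.99 without RLM replicate 1). Adgrg6, known from Schwann cell myelination, had 23.9 and 6.82 CPM in Kupffer cells, 27.7 and 26.6 CPM in RLM and 34.9 and 28.5 CPM in monocytes, so the Kupffer cell libraries differed widely and the call against monocytes was lost without Kupffer cell replicate 2 (log2 -0.44, adjusted p 0.163), without RLM replicate 1 (-1.12, adjusted p 0.172) and without monocyte replicate 1 (-0.99). Adgrb2, Adgrd1 and Adgrg5 were lower in Kupffer cells against RLM, with log2 fold changes of -1.71 ± 0.61, -1.76 ± 0.69 and -1.35 ± 0.42, and each lost its call without Kupffer cell replicate 2 and without at least 1 RLM library. Adgrf4 was lower against monocytes (-2.0 ± 0.85, adjusted p 0.0427), at 0.283 and 0.325 CPM in Kupffer cells and 1.02 and 1.52 CPM in monocytes, and lost its call without either Kupffer cell library. Adgrg3, Adgrl1, Adgrl2 and Adgrl3 were not called in any of the 3 comparisons, with Adgrl2 nearest at 0.75 in Kupffer cells over RLM (adjusted p 0.00119). With regions within 10000 bp of the TSS alone, Adgrl2 was called higher in Kupffer cells against both RLM and monocytes. Adgrl3 was then called higher in RLM and in Kupffer cells against monocytes. Of the 14 Adgrl2 regions, 2 were higher and 1 lower in Kupffer cells against RLM, and 2 higher and 2 lower against monocytes.

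Over the adhesion receptors, 21 of 24 could be tested in liver and blood cells. In RLM against monocytes 0 were higher and 1 was lower, against 6.20% and 5.80% of all genes. Kupffer cells against RLM gave 3 higher and 6 lower, against 14.6% and 12.8% of all genes, and Kupffer cells against monocytes gave 4 higher and 4 lower, against 18.4% and 14.4%. Of the 52 tested Gpr receptors, 3 were higher and 4 lower in RLM against monocytes, 9 higher and 9 lower in Kupffer cells against RLM, and 12 higher and 8 lower in Kupffer cells against monocytes.

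**Figure D2:**
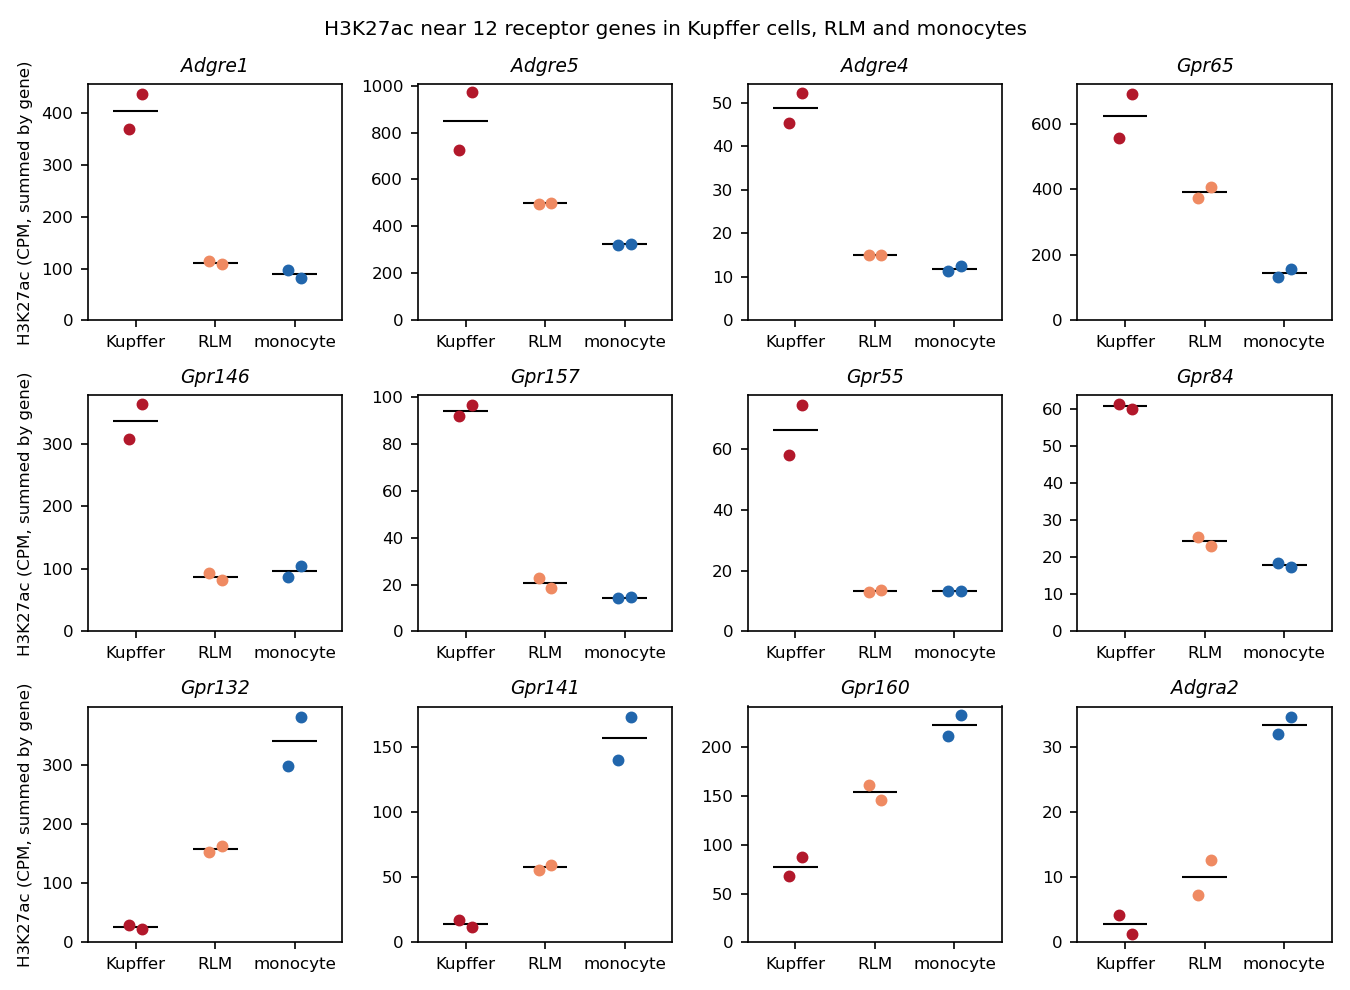
Summed H3K27ac (CPM, vertical axis) of 12 receptors in Kupffer cells, RLM and monocytes; each point is a library and each line the mean of 2. Kupffer cells lie above the rest for Adgre1, at 369 and 437 CPM against 97.3 and 81.1 CPM in monocytes, and below the rest for Gpr132, at 29.7 and 22.5 CPM against 299 and 381 CPM in monocytes.

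Proton-sensing receptors moved in opposite directions. Gpr65, whose product raises cyclic AMP at low pH, had 556 and 691 CPM in Kupffer cells, 373 and 407 CPM in RLM and 133 and 158 CPM in monocytes. It was higher in RLM than in monocytes by 1.42 ± 0.15 on the log2 scale (adjusted p 1.18e-08) and in Kupffer cells than in monocytes by 2.1 ± 0.16 (2.97e-13), with all groups apart. Kupffer cells over RLM gave 0.68 with an adjusted p of 0.000377, under the fold limit. Of its 19 regions, 11 were called higher in RLM against monocytes and 17 in Kupffer cells against monocytes. An intron region 1197 bp after the TSS (chr12:98268832-98270832) had 59.6 and 77.7 CPM in Kupffer cells, 56.8 and 58.1 CPM in RLM and 14.6 and 18.2 CPM in monocytes, so RLM were near the Kupffer cell level there. By contrast, the region 22027 bp downstream had 14.7 and 16.3 CPM in Kupffer cells, 3.15 and 4.17 CPM in RLM and 3.97 and 4.29 CPM in monocytes, where RLM were near the monocyte level.

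Gpr132, a lysolipid and lactate receptor of macrophages, had 29.7 and 22.5 CPM in Kupffer cells, 153 and 163 CPM in RLM and 299 and 381 CPM in monocytes. The groups did not overlap. Gpr132 was 2.15-fold lower in RLM against monocytes (log2 -1.1 ± 0.16, adjusted p 2.18e-06), 6.13-fold lower in Kupffer cells against RLM (-2.62 ± 0.18, adjusted p 9.38e-14) and 13.2-fold lower in Kupffer cells against monocytes (-3.72 ± 0.18, adjusted p 9.25e-18). Without monocyte replicate 2 the first of these was -0.96 and under the fold limit, with an adjusted p of 8.21e-05. The promoter region around the sequence printed above (chr12:112859973-112861973) had 1.79 and 1.17 CPM in Kupffer cells, 29.4 and 31.5 CPM in RLM and 60.7 and 80.7 CPM in monocytes. Its log2 fold change in Kupffer cells over RLM was -4.43. Gpr4, a proton sensor of blood vessels, had 1.84 and 3.7 CPM in Kupffer cells, 4.1 and 2.09 CPM in RLM and 1.87 and 2.79 CPM in monocytes, with overlap between all groups, and was not called.

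Lipid receptors gave 2 higher (Gpr55 and Gpr84) and 2 lower (Gpr174 and Gpr31b) of 8 tested in Kupffer cells against RLM, beside 14.6% and 12.8% of all genes. Kupffer cells against monocytes gave 2 higher and 1 lower, beside 18.4% and 14.4%. In RLM against monocytes 0 were higher and 0 lower, beside 6.20% and 5.80%. Gpr55, a lysophosphatidylinositol receptor, had 58.3 and 74.7 CPM in Kupffer cells, 13 and 13.6 CPM in RLM and 13.4 and 13.4 CPM in monocytes, higher by 2.32 ± 0.21 on the log2 scale against RLM (adjusted p 6.87e-11). RLM and monocytes were level, and the Kupffer cell signal lay in 3 intergenic regions upstream, of which chr1:85986437-85988437 (-26382 bp from the TSS) had 16.6 and 23.9 CPM in Kupffer cells, 2.63 and 2.03 CPM in RLM and 3.14 and 2.56 CPM in monocytes.

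Gpr84, the medium-chain fatty acid receptor, had 61.4 and 60.0 CPM in Kupffer cells, 25.5 and 23.1 CPM in RLM and 18.5 and 17.4 CPM in monocytes. Log2 fold changes were 1.32 ± 0.19 against RLM (adjusted p 8.37e-07) and 1.76 ± 0.19 against monocytes (2.1e-09). The region over the promoter printed above (chr15:103309604-103311604) was among those that rose, with 8.94 and 9.74 CPM in Kupffer cells, 4.47 and 3.25 CPM in RLM and 4.22 and 1.65 CPM in monocytes. Gpr174, a lysophosphatidylserine receptor of lymphocytes, had 1.84 and 1.88 CPM in Kupffer cells, 5.94 and 3.18 CPM in RLM and 8.01 and 6.0 CPM in monocytes, and its call against RLM was lost without either Kupffer cell library or RLM replicate 1. Gpr31b had 2.83 and 1.62 CPM in Kupffer cells and 6.09 and 5.27 CPM in RLM, and lost its call without Kupffer cell replicate 2 (-0.99, adjusted p 0.166).

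Gpr183, which binds 7-alpha,25-dihydroxycholesterol and guides immune cells, had no call for its sum, at 67.8 and 71.7 CPM in Kupffer cells, 55.2 and 63.8 CPM in RLM and 99.2 and 87.7 CPM in monocytes. Its single regions moved in opposite directions: of 12, 3 were higher and 6 lower in Kupffer cells against RLM. The promoter region (chr14:121964169-121966169) had 0.835 and 1.47 CPM in Kupffer cells, 7.36 and 4.57 CPM in RLM and 10.2 and 13.1 CPM in monocytes. A region 3215 bp after the TSS in its intron had 0.358 and 0.88 CPM in Kupffer cells, 10.4 and 11.8 CPM in RLM and 13.6 and 16.6 CPM in monocytes, a log2 fold change of -3.99 in Kupffer cells over RLM. Farther upstream, at -31769 bp from the TSS and inside the overlapping gene Ubac2, Kupffer cells had 12.3 and 12.4 CPM, RLM 2.36 and 5.08 CPM and monocytes 7.36 and 5.2 CPM, a log2 fold change of 1.69 over RLM. When only regions within 10000 bp of the TSS were summed, Gpr183 was lower in Kupffer cells than in RLM (log2 fold change -2.1, adjusted p 1.09e-09), so its direction depends on which regions are given to it. Of the enzymes that make or break down its ligand, Hsd3b7 was called higher in Kupffer cells against RLM, and Cyp7b1 lower against monocytes. Gpr18, a neighbour of Gpr183 in the same locus, had 156 and 175 CPM in Kupffer cells, 84.9 and 98.5 CPM in RLM and 146 and 153 CPM in monocytes and was not called.

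**Figure D3:**
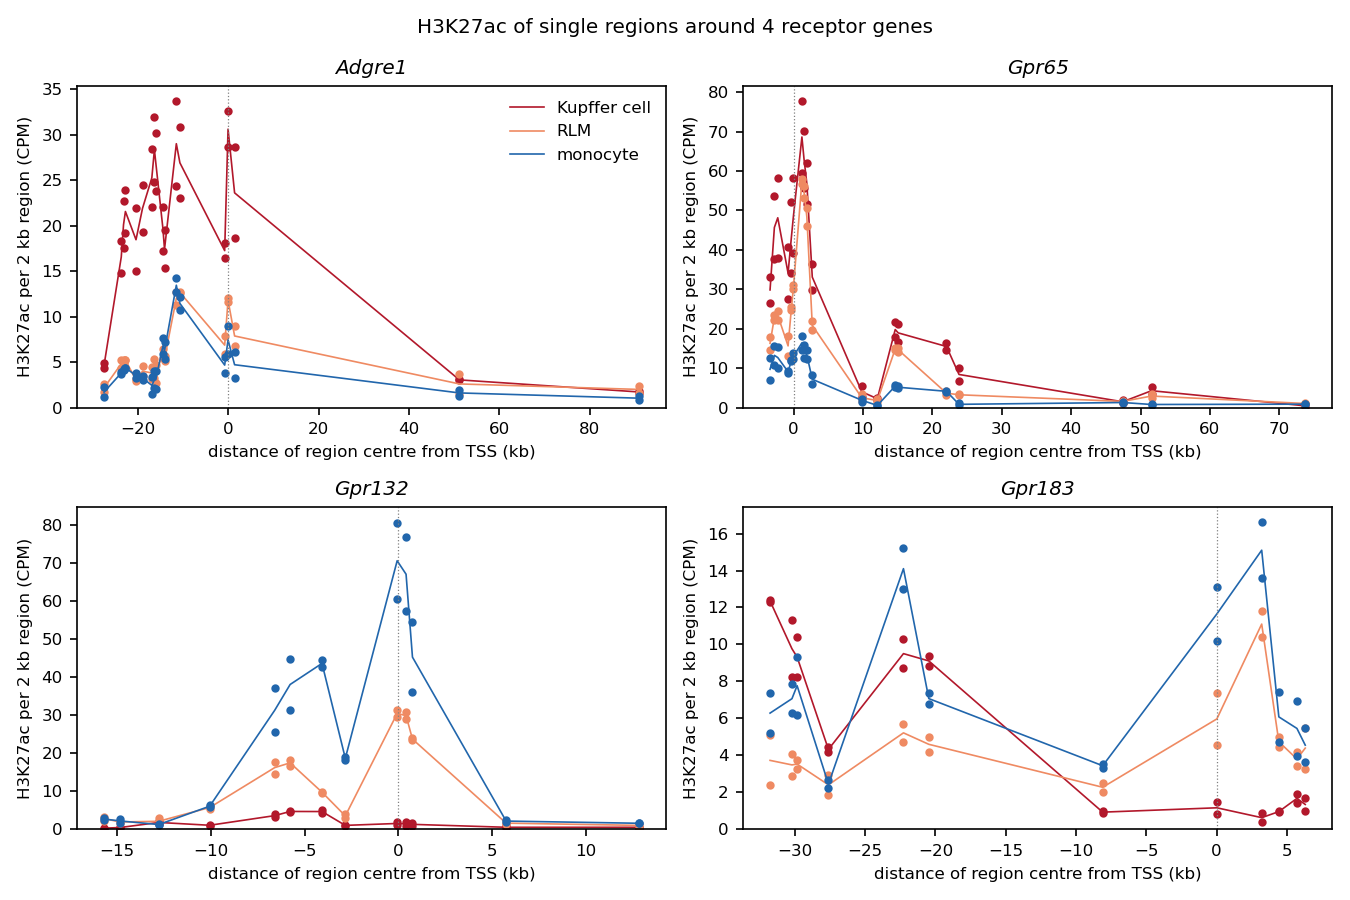
H3K27ac (CPM, vertical axis) of each 2 kb region around Adgre1, Gpr65, Gpr132 and Gpr183 by distance of the region centre from the TSS (kb, horizontal axis); points are libraries, lines join group means, and the dotted line is the TSS. The Adgre1 cluster upstream of the TSS is high in Kupffer cells, the Gpr132 promoter is low in them at 1.79 and 1.17 CPM, and at Gpr183 Kupffer cells are high upstream and low at the promoter.

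Of the receptors with no settled ligand or a ligand from other tissues, several had more H3K27ac in Kupffer cells. Gpr146, a receptor with a role in hepatic cholesterol handling, had 308 and 363 CPM in Kupffer cells, 92.7 and 82.7 CPM in RLM and 86.8 and 105 CPM in monocytes. It was higher by 1.94 ± 0.16 on the log2 scale against RLM (adjusted p 9.57e-12), and all 9 of its regions were called higher in that comparison, though the locus lies within 3110082I17Rik. The promoter region (chr5:139379570-139381570) had 52.8 and 69.6 CPM in Kupffer cells, 22.5 and 19.2 CPM in RLM and 28.6 and 36.3 CPM in monocytes.

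Gpr157 had 92.1 and 96.7 CPM in Kupffer cells, 22.9 and 18.4 CPM in RLM and 14.4 and 14.5 CPM in monocytes, and rose by 2.2 ± 0.19 on the log2 scale against RLM (adjusted p 3.12e-11) and by 2.71 ± 0.19 against monocytes. A region at -6990 bp from its TSS (chr4:150079513-150081513) had 20.6 and 29.9 CPM in Kupffer cells, 3.02 and 2.13 CPM in RLM and 0.579 and 1.32 CPM in monocytes. Both Kupffer cell libraries stood above all others there.

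Gpr182, an atypical chemokine receptor of liver endothelium, had 11.6 and 11.5 CPM in Kupffer cells, 0.991 and 0.549 CPM in RLM and 0.511 and 0.507 CPM in monocytes. This was the largest called change of a receptor in Kupffer cells against RLM, at 3.93 ± 0.48 on the log2 scale over RLM (adjusted p 2.74e-08). It rested on 1 region in the 3' untranslated part of the neighbour Zbtb39. Thinning of overlapping regions left Gpr182 without a tested value, so the call could not be checked that way. Gpr61 had 16.1 and 24.9 CPM in Kupffer cells, 2.69 and 3.84 CPM in RLM and 2.05 and 2.28 CPM in monocytes (2.65 ± 0.33 over RLM, adjusted p 4.86e-08). Gpr152, with a single region, had 12.6 and 13.4 CPM in Kupffer cells, 3.4 and 6.59 CPM in RLM and 3.41 and 2.62 CPM in monocytes, and its call against RLM (1.36 ± 0.34, adjusted p 0.00122) was lost without RLM replicate 1, at 1.0. Gpr82, which overlaps Cask, was called only against RLM (1.18 ± 0.3), with 11.5 and 12.3 CPM in Kupffer cells and 5.09 and 5.38 CPM in RLM.

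Gpr137b and Gpr142 were higher in Kupffer cells against monocytes, with log2 fold changes of 1.33 ± 0.27 and 1.13 ± 0.38. The Gpr142 call was lost without Kupffer cell replicate 1 and without monocyte replicate 1. Gpr137b shares sequence with Gpr137b-ps, so its tags are uncertain.

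Lower in Kupffer cells were Gpr141, Gpr160 and Gpr83. Gpr141 had 17.0 and 11.9 CPM in Kupffer cells, 55.6 and 59.5 CPM in RLM and 140 and 173 CPM in monocytes. Its log2 fold changes were -1.44 ± 0.18 in RLM over monocytes (adjusted p 1.5e-07) and -2.03 ± 0.2 in Kupffer cells over RLM (3.32e-10). The region over the promoter printed above had 0.358 and 0.411 CPM in Kupffer cells, 3.68 and 4.98 CPM in RLM and 13.6 and 17.4 CPM in monocytes, and regions at -30882 and 30268 bp from the TSS fell with it. Gpr160 had 68.2 and 87.0 CPM in Kupffer cells, 161 and 146 CPM in RLM and 211 and 233 CPM in monocytes, called against monocytes (-1.51 ± 0.16, adjusted p 1.01e-09) but not against RLM (-0.98).

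Gpr83, a receptor of regulatory T cells and brain, had 22.9 and 19.2 CPM in Kupffer cells, 26.9 and 24.3 CPM in RLM and 74.9 and 88.3 CPM in monocytes. RLM were far below monocytes, with -1.68 ± 0.19 in RLM over monocytes (adjusted p 2.69e-08), and Kupffer cells over RLM were not called for the sum (-0.29, adjusted p 0.223). Most of this came from a region at -24672 bp in the 3' untranslated part of Mre11a, at 14.4 and 12.6 CPM in Kupffer cells, 14.8 and 11.8 CPM in RLM and 56.4 and 65.1 CPM in monocytes. With regions within 10000 bp alone, RLM over monocytes gave 0.38 and Kupffer cells over RLM gave a lower call (-1.86, adjusted p 0.00625). Of its 6 regions, 3 were lower in Kupffer cells against RLM, the promoter region among them, at 0.358 and 0.293 CPM in Kupffer cells, 1.71 and 1.02 CPM in RLM and 1.32 and 0.826 CPM in monocytes. Gpr12, an activator of adenylyl cyclase, had 14.0 and 4.09 CPM in Kupffer cells, 6.37 and 11.9 CPM in RLM and 53.1 and 47.9 CPM in monocytes, mostly from 3 regions between -91439 and -90155 bp. Its call in RLM over monocytes (-2.45 ± 0.43) was lost without RLM replicate 1 (-2.1, adjusted p 0.0837).

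Gpr162 was called higher in RLM over monocytes (1.44 ± 0.36, adjusted p 0.00223) and in Kupffer cells over monocytes (1.1 ± 0.37, adjusted p 0.0111), at 8.07 and 5.46 CPM in Kupffer cells, 6.93 and 9.88 CPM in RLM and 3.15 and 3.04 CPM in monocytes. The first was lost without RLM replicate 2 and the other without Kupffer cell replicate 1, and in regions within 10000 bp Kupffer cells over monocytes gave -0.22. Gpr85, Gpr135, Gpr171, Gpr62 and Gpr75 were lower in Kupffer cells against RLM, with log2 fold changes of -1.21 ± 0.23, -1.48 ± 0.38, -1.72 ± 0.35, -1.65 ± 0.68 and -1.62 ± 0.62. Gpr62 lost its call without any 1 of the 4 libraries compared, and Gpr75 without Kupffer cell replicate 2 (-0.77, adjusted p 0.406) or either RLM library. Both also lost it with DESeq2 (adjusted p 0.102 for Gpr62 and 0.0666 for Gpr75). All but Gpr85 had at most 12.5 CPM in every library of both groups.

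Receptors of myeloid cells that were not called included Gpr34, a lysophosphatidylserine receptor, and Gpr35, and Gpr155 was not called either (0.72 in Kupffer cells over RLM). Gpr34 had 8.21 and 7.99 CPM in Kupffer cells, 7.5 and 8.45 CPM in RLM and 8.27 and 8.79 CPM in monocytes. Gpr35 had 109 and 119 CPM in Kupffer cells, 106 and 138 CPM in RLM and 130 and 137 CPM in monocytes. For Gpr34 and Gpr35, RLM overlapped both other groups, while Kupffer cells lay just under monocytes without overlap. A promoter region of Gpr35 (chr1:92977878-92979878) was lower in Kupffer cells against RLM (log2 fold change -2.26), at 1.19 and 0.704 CPM in Kupffer cells, 3.94 and 4.67 CPM in RLM and 5.62 and 4.79 CPM in monocytes.

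Single regions of receptors were called at rates of 7.46% higher and 10.5% lower in RLM against monocytes (27 and 38 of 362), against 8.57% and 9.14% of all 80982 regions. Kupffer cells against RLM gave 77 higher (21.3%) and 72 lower (19.9%), against 22.3% and 13.9% of all regions. Kupffer cells against monocytes gave 90 higher (24.9%) and 74 lower (20.4%), against 24.9% and 17.7%. Of the tested receptor regions, 69 lay within 1000 bp of a TSS and 293 beyond. In RLM against monocytes the near regions gave 4 higher and 5 lower and the far ones 23 and 33, against 7.11% and 7.21% of all near regions and 9.07% and 9.79% of all far ones. Kupffer cells against RLM gave 9 higher and 17 lower near a TSS and 68 and 55 beyond, against 9.54% and 11.3% of all near regions and 26.6% and 14.8% of all far ones. Kupffer cells against monocytes gave 12 higher and 11 lower near a TSS and 78 and 63 beyond, against 13.6% and 16.6% of all near regions and 28.8% and 18.1% of all far ones. Without Kupffer cell replicate 2 the lower regions numbered 37 in place of 72.

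Other parts of receptor signalling were read from lists of pathway genes. Their counts stand beside 18.4% of all genes higher and 14.4% lower in Kupffer cells against monocytes, and 14.6% and 12.8% in Kupffer cells against RLM. Of 11 tested G protein alpha subunits, 3 (Gna14, Gna15 and Gnaq) were higher and 1 (Gnai3) lower in Kupffer cells against monocytes, and 2 (Gna14 and Gna15) were higher and 1 (Gnaz) lower against RLM. Of 11 tested receptor kinases and arrestins, which switch receptors off, 2 (Arrb2 and Grk2) were higher and 2 (Arrb1 and Arrdc1) lower in Kupffer cells against monocytes, and 0 were called against RLM. RGS proteins, which speed up GTP hydrolysis, gave 3 higher (Rgs1, Rgs10 and Rgs12) and 2 lower (Rgs14 and Rgs18) of 12 in Kupffer cells against monocytes, and 1 higher (Rgs10) and 2 lower (Rgs7 and Rgs18) against RLM. Of 6 tested adenylyl cyclases, 2 (Adcy3 and Adcy4) were higher in Kupffer cells against both monocytes and RLM, while 0 were lower against monocytes and 2 (Adcy2 and Adcy5) against RLM. In RLM against monocytes, Rgs1 was higher and Gnai3 and Rgs18 were lower in these 4 lists, beside 6.20% and 5.80% of all genes. Of 11 tested G protein beta and gamma subunits, 2 were higher and 0 lower in Kupffer cells against monocytes. Against RLM 1 was higher and 1 lower, and in RLM against monocytes 1 was higher and 0 lower. Of the engulfment genes that act behind Adgrb1, 3 of 6 (Dock1, Elmo2 and Rac2) were higher in Kupffer cells against both RLM and monocytes, and 0 were lower, although Adgrb1 itself had too few tags to test.

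In BMDM, DLL4 raised H3K27ac at 6 receptors and lowered it at 1. Of 70 tested receptors, 8.57% were higher and 1.43% lower, against 2.60% and 1.28% of all 16421 genes tested. The median log2 fold change of the receptors was 0.11 and that of all genes -0.01. Of 363 tested receptor regions, 37 (10.2%) were higher and 3 (0.826%) lower, against 4.89% and 2.64% of all 82089 regions. The 62 regions within 1000 bp of a TSS gave 5 higher and 1 lower, against 1.59% and 0.716% of all near regions. The 301 beyond gave 32 higher and 2 lower, against 5.93% and 3.24% of all far ones. Lower receptors numbered 2 without untreated replicate 1, and lower regions 6 without DLL4 replicate 2. Marker sums moved in the same libraries. Dendritic cell markers had 321 and 302 CPM with DLL4 and 185 and 193 CPM without, with 1 of 6 (Clec9a) called higher, and liver endothelium markers had 260 and 262 CPM with DLL4 and 156 and 151 CPM without, with 1 of 8 (Pecam1) called higher. Of 7 macrophage markers 3 (C1qa, C1qb and C1qc) were higher with DLL4, and the part of these markers in the receptor values was not tested. BMDM levels were scaled apart from the liver and blood table and are not compared with it.

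Adgrl3, a latrophilin that binds teneurins and FLRT proteins, had 43.7 and 49.6 CPM with DLL4 and 6.49 and 3.23 CPM without. The groups were far apart, with a log2 fold change of 3.3 ± 0.2 (adjusted p 1.79e-13), the largest among the receptors. An intron region 22493 bp after its TSS (chr5:81043086-81045086) had 16.7 and 19.1 CPM with DLL4 and 1.21 and 0.253 CPM without, and its promoter region had 0.697 and 0.523 CPM with DLL4 and 0.0 and 0.0724 CPM without. Adgre4 had 80.4 and 90.0 CPM with DLL4 and 29.9 and 26.4 CPM without (1.6 ± 0.1, adjusted p 9.25e-21). All 4 of its regions rose, the promoter region from the sequence above standing at 17.8 and 24.0 CPM with DLL4 and 5.44 and 7.2 CPM without. Adgre5 had 289 and 277 CPM with DLL4 and 109 and 116 CPM without (1.32 ± 0.06, adjusted p 8.18e-28), and in its intron 2986 bp after the TSS 42.2 and 43.4 CPM with DLL4 and 10.5 and 10.5 CPM without.

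Adgre1 was not called with DLL4, at 530 and 573 CPM with it and 538 and 552 CPM without (log2 0.02). Gpr83 had 74.5 and 81.3 CPM with DLL4 and 26.8 and 26.2 CPM without (1.56 ± 0.11, adjusted p 5.74e-20), most of it in the regions at -17597 and -24686 bp. The nearer of these had 16.8 and 20.9 CPM with DLL4 and 3.98 and 3.73 CPM without. Gpr162 had 20.8 and 25.4 CPM with DLL4 and 7.45 and 6.8 CPM without (1.7 ± 0.18, adjusted p 1.9e-12), from regions that lie at its own promoter and in Cd4.

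Gpr152 had 7.39 and 8.6 CPM with DLL4 and 3.55 and 1.47 CPM without (1.71 ± 0.3, adjusted p 9.17e-06). Gpr161, a ciliary receptor of Hedgehog signalling, was the one receptor lower with DLL4, at 0.788 and 0.759 CPM with it and 1.27 and 3.05 CPM without (-1.49 ± 0.57, adjusted p 0.0421), and its call was lost with DESeq2, with either DLL4 library left out and without untreated replicate 2 (-0.71, adjusted p 0.683). Gpr65 had 458 and 470 CPM with DLL4 and 288 and 293 CPM without, a log2 fold change of 0.67 that missed the fold limit, although its region 51560 bp downstream had 39.7 and 38.2 CPM with DLL4 and 10.0 and 9.3 CPM without (2.01). Gpr34 had 300 and 318 CPM with DLL4 and 196 and 182 CPM without (0.71), and Gpr183 had 365 and 367 CPM with DLL4 and 355 and 369 CPM without.

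**Figure D4:**
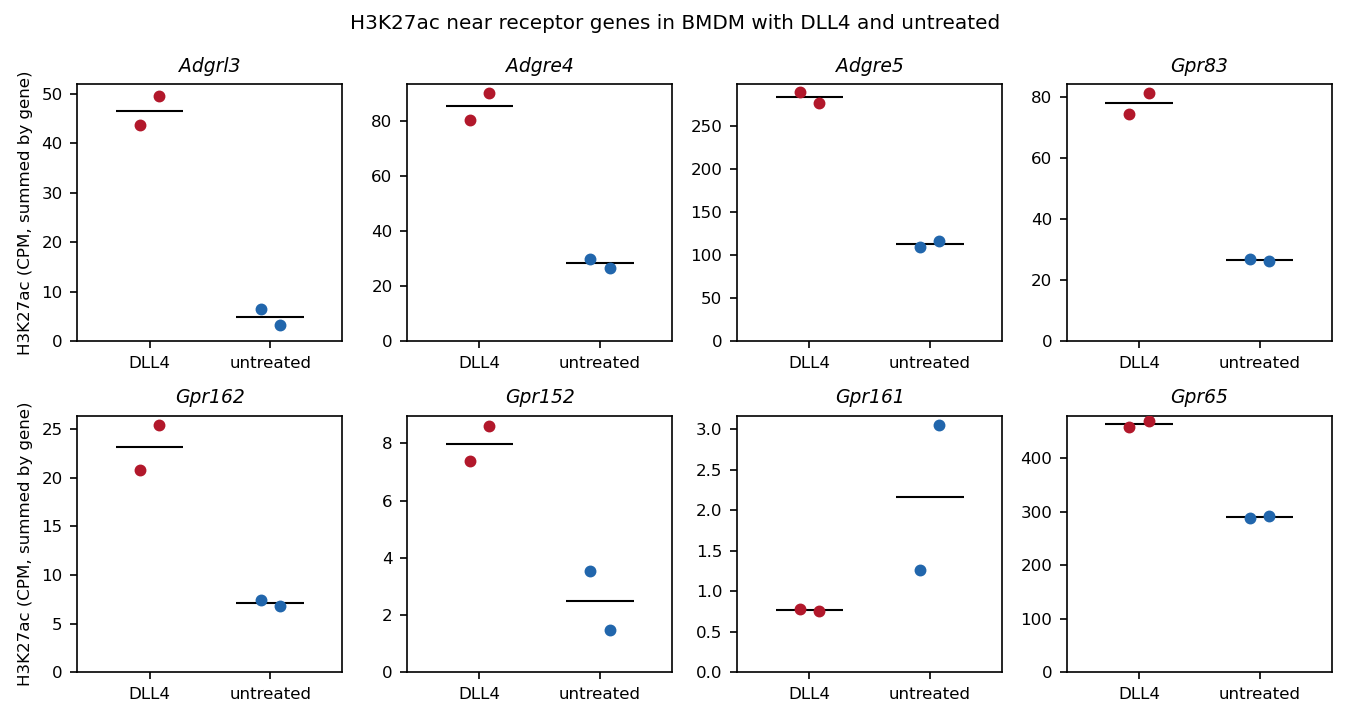
Summed H3K27ac (CPM, vertical axis) of 8 receptors in BMDM with DLL4 and untreated; each point is a library and each line the mean of 2. Adgrl3, Adgre4, Adgre5, Gpr83, Gpr162 and Gpr152 lie higher with DLL4, Gpr161 lies lower at 0.788 and 0.759 CPM, and Gpr65 stands at 458 and 470 CPM with DLL4 and 288 and 293 CPM without.

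Binding of the 3 factors was read from peaks that overlapped a receptor region of either table, with a receptor counted when both libraries had a peak, not necessarily at the same site. LXR peaks were found at 43 receptors (51.8%) in Kupffer cells and at 38 (45.8%) in GW3965-treated BMDM, against 62.2% and 53.1% of all 18476 genes. SMAD4 peaks were found at 38 (45.8%) in Kupffer cell nuclei and 33 (39.8%) in BMDM, against 55.9% and 49.0%. RBPJ peaks were found at 22 (26.5%) in Kupffer cell nuclei and 66 (79.5%) in BMDM, against 27.8% and 85.2%. Receptors with peaks of all 3 factors numbered 17 (20.5%) in Kupffer cells and 28 (33.7%) in BMDM, against 24.5% and 38.4% of all genes. Without replicate 2 of RBPJ in Kupffer cell nuclei, so that a peak in replicate 1 sufficed, 35 receptors had one.

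The libraries limit these counts. RBPJ in Kupffer cell nuclei had 1.01% and 0.76% of tags in peaks and 13394 and 11277 peaks, against 25.1% and 24.49% and 80480 and 78976 peaks in BMDM, so RBPJ values of the 2 cell types are given side by side, and a lower number or level in Kupffer cell nuclei is not read as less RBPJ binding. LXR replicate 2 of Kupffer cells had 69824 peaks and its input carries the name of a NASH diet, while its ChIP carries that of a control diet, per the file headers, and 1 input served both SMAD4 replicate 2 and RBPJ replicate 1 of Kupffer cell nuclei. In BMDM, LXR binding was measured after 7 days of culture and with an agonist, whereas the labels give no culture for Kupffer cells, and these differences cannot be told apart from cell type.

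LXR sites at Adgre5 and Gpr157 had the highest mean of the 2 Kupffer cell libraries among receptor sites, in the normalized tag counts that the authors' peak caller scales to a common depth. Adgre5's intron site (chr8:83738207-83738440) had 158.2 and 67.5 normalized tags in Kupffer cells and 385.2 and 409.4 in BMDM. Gpr157's site (chr4:150080430-150080679), inside the upstream region with high H3K27ac in Kupffer cells, had 171.0 and 47.4 in Kupffer cells and 87.1 and 124.9 in BMDM. In replicate 2 alone it lay below sites of Adgrl2 (55.4), Gpr160 (50.8) and Gpr183 (48.8). Adgre1 had an LXR peak in both Kupffer cell libraries at chr17:57342517-57342735, at 121.1 and 39.1, within the upstream region described above, and none was listed in BMDM at that site. Over all its regions, Adgre1 had 7 LXR sites in both Kupffer cell libraries and 5 in both BMDM libraries, with 4 in both cell types. Gpr183's site in Ubac2, chr14:121994881-121995107, had 150.7 and 48.8 in Kupffer cells and 196.6 and 148.5 in BMDM, and SMAD4 and RBPJ had peaks that overlapped it.

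In Kupffer cell nuclei SMAD4 was highest among receptor sites at Adgre5 upstream of the TSS (chr8:83747981-83748226), at 238.1 and 228.4 normalized tags in Kupffer cell nuclei and 143.6 and 205.4 in BMDM. At the Adgre1 promoter SMAD4 had 83.9 and 151.3 in Kupffer cell nuclei and 206.4 and 145.8 in BMDM. RBPJ at the Adgre5 intron had 14.2 and 11.5 in Kupffer cell nuclei and 158.5 and 128.7 in BMDM. In both Kupffer cell libraries and neither BMDM library, LXR peaks were listed at 5 receptors (Adgra3, Gpr137, Gpr182, Gpr3 and Gpr61) and SMAD4 peaks at 4, among them Adgrf5, Gpr55 and Gpr61. These were 6.02% and 4.82% of the receptors, against 6.51% and 5.90% of all genes. For RBPJ 0 receptors showed that pattern, as did 0.260% of all genes.

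Set beside the acetylation calls, LXR peaks in Kupffer cells were listed at 12 of 12 receptors higher in Kupffer cells against RLM (100.0%, against 91.4% of all genes called higher) and at 2 of 15 lower receptors (13.3%, against 27.8%). SMAD4 peaks in Kupffer cell nuclei were listed at 11 of those 12 (91.7%, against 83.1%) and at 3 of the 15 (20.0%, against 24.7%). RBPJ peaks there were listed at 7 of the 12 (58.3%, against 48.4%) and 4 of the 15 (26.7%, against 11.0%). Of the 46 receptors not called, 63.0% had LXR, 52.2% SMAD4 and 23.9% RBPJ peaks, against 70.4%, 63.2% and 30.3% of all genes not called. Peaks counted only inside H3K27ac regions, and 7 of the 15 lower receptors but 1 of the 12 higher averaged under 5 CPM. The part of signal level in these shares was not tested. All 6 receptors that rose with DLL4 had an RBPJ peak in untreated BMDM (100.0%), as did 94.4% of all genes that rose, 88.9% of receptors not called and 91.9% of all genes not called. Gpr132, low in Kupffer cells for H3K27ac, had 1 LXR site in both Kupffer cell libraries and 3 in both BMDM libraries, and 0 SMAD4 sites in both libraries of Kupffer cell nuclei and 4 in both BMDM libraries.

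**Figure D5:**
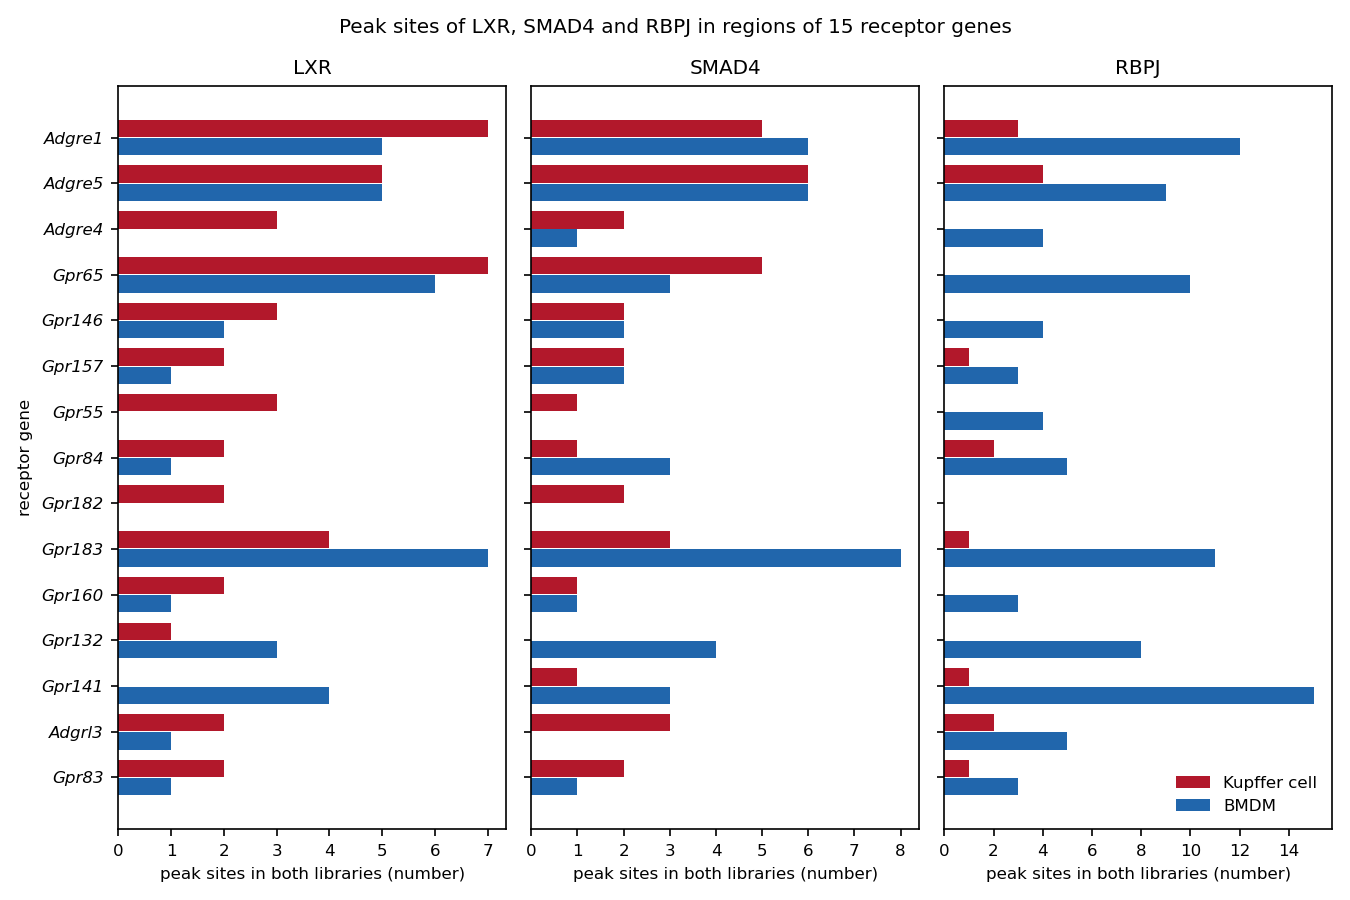
Number of peak sites found in both libraries (horizontal axis) of LXR, SMAD4 and RBPJ at 15 receptors, in Kupffer cells and BMDM. Gpr141 had 1 RBPJ site in Kupffer cell nuclei and 15 in BMDM; the RBPJ libraries of Kupffer cell nuclei had 1.01% and 0.76% of tags in peaks, so the RBPJ counts are not read against each other.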

How the data were processed

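Of 34 samples, 12 are inputs and 22 carried values: 10 H3K27ac libraries and 12 factor peak lists. Per the labels, 2 libraries were made for each group. The deposited H3K27ac files give raw tag counts per 2000 bp region. Reads were processed with Bowtie2 and HOMER on mm10, per the submitters' processing notes. Per the file headers, peaks were called per library against 1 input with HOMER, at an FDR of 0.001, at least 4-fold over input and over the surrounding 10000 bp, and a Poisson p-value of 0.0001. The deposited lists give a signal, the tag count scaled to the depth the headers give, and a fold ratio over input.

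Counts were summed per gene within 100000 bp of the TSS. edgeR 4.0.16 (R 4.3.3) with TMM scaling and the filterByExpr filter gave quasi-likelihood tests, adjusted by Benjamini-Hochberg over all features of a table. The adhesion and orphan receptors, the marker and pathway lists and the motifs were chosen with earlier results of these data known. Named receptors were every called Adgr gene, the 10 largest called changes per comparison and direction whose libraries did not overlap, and receptors of known ligand or myeloid use. Values of Gpr4, Gpr82, Gpr85, Gpr137b and Gpr142 are given outside this rule. They are not among the values of named receptors counted under the alternatives. The script was tested on simulated data. Alternatives were DESeq2 1.42.0, its size factors, total tags, no filter, no distance limit, a 10000 bp limit, non-overlapping regions, a replicate block and each library left out, and for peaks a fold of at least 8, the peak centre inside the region, and a peak in either library. Peaks were matched by at least 1 bp, and H3K27ac tags of the 2 tables were tested apart. Totals per library are given with the results. Enhancer sequences were not used here, and some receptors are counted but not reported here by name.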

Additional observations from a re-analysis of the deposited data

How the results depend on the processing

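Of 2304 values of named receptors under the alternatives, 2200 kept their direction and their side of the threshold, 76 lost a call, 25 gained one and 3 reversed. All 3 reversals came from counting only regions within 10000 bp of the TSS: Gpr83 in RLM over monocytes (0.38, adjusted p 0.607), Gpr183 in Kupffer cells over RLM (-2.1, adjusted p 1.09e-09) and Gpr162 in Kupffer cells over monocytes (-0.22, adjusted p 0.739), which follows from dropping their distant regions. That limit gave 9 lower receptors in Kupffer cells against RLM in place of 15, with 6 of the 15 kept, and the added minimum of 5 CPM gave 8. With each library left out in turn, receptors higher in RLM against monocytes numbered 2 to 6 (6 without monocyte replicate 1 and 5 without RLM replicate 1) and lower ones 4 to 6. Kupffer cells against RLM gave 13 to 14 higher and 8 to 15 lower, and Kupffer cells against monocytes 15 to 18 higher and 10 to 13 lower. DLL4 gave 6 to 8 higher and 0 to 2 lower. Receptor regions ranged from 20 to 27 higher and 30 to 40 lower in RLM against monocytes, 57 to 82 and 37 to 79 in Kupffer cells against RLM, 80 to 94 and 56 to 76 in Kupffer cells against monocytes, and 31 to 40 and 2 to 6 with DLL4. The cause of these shifts was not tested. The receptor lower with DLL4 was not called (0) by DESeq2, with the replicate block or above 5 CPM.

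Receptors with a peak in either library, in place of both, were 51 for SMAD4 in BMDM and 43 for RBPJ in Kupffer cell nuclei, and a fold over input of at least 8 left 5 for the same RBPJ libraries. A peak in the remaining library alone gave 46 to 54 for LXR in Kupffer cells, 41 to 50 for LXR in BMDM, 39 to 49 for SMAD4 in Kupffer cell nuclei, 41 to 43 for SMAD4 in BMDM, 30 to 35 for RBPJ in Kupffer cell nuclei and 69 to 74 for RBPJ in BMDM. The single-library counts and the minimum of 5 CPM were chosen after seeing the data.

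Same-numbered libraries did not deviate together across genes (correlations of -0.03, 0.06, -0.03 and 0.01). With a single difference between replicates per group, this cannot exclude shared animals or batches, which the labels do not state. The replicate block gave 3 higher and 5 lower receptors in RLM against monocytes, 12 and 16 in Kupffer cells against RLM, 16 and 12 in Kupffer cells against monocytes, and 6 and 0 with DLL4, and 23 and 36, 74 and 71, 90 and 74, and 36 and 3 regions in the same order. Depth limits receptors of a few CPM.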
